A study of Homo sapiens with 4 samples.

Results

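A set of 35 genes of glycolysis, glucose uptake and the pentose phosphate pathway was described among the 26506 gene symbols of an RNA sequencing study of ovarian cancer cells. The genes were chosen by symbol for their known roles and not by their values, although earlier results of these data were known. All 35 were found in both tables. RNA was sequenced from HeyC2 and SKOV3, both established human ovarian cancer cell lines. Each line was transfected with 3 μg of a pCMV6 plasmid that carries TET1, a DNA demethylase, or with the empty plasmid, and both arms were then selected with 400 μg/ml Geneticin. The HeyC2 control, HeyC2 TET1, SKOV3 control and SKOV3 TET1 groups hold 1 library each, 4 in all. Control cells carried the empty plasmid and the selection too, although the labels give their genotype as wild type. The labels name neither the time in culture nor whether clones or a pool were sequenced. No difference below has a replicate check, and none was tested.

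Glycolysis splits glucose into pyruvate in the cytosol and yields ATP and NADH. Pyruvate then becomes lactate, which leaves the cell through monocarboxylate transporters, or enters the mitochondria. The pentose phosphate pathway branches off at glucose-6-phosphate and supplies NADPH and ribose, and its non-oxidative enzymes return carbon to glycolysis. Cancer cells are known for a high use of both routes, and several of these enzymes exist as isozymes with different tissue patterns.

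The deposited values are FPKM, fragments per kilobase of transcript, scaled to the mapped fragments of the library. GAPDH, the glycolytic enzyme that oxidizes glyceraldehyde-3-phosphate and one of the 35 genes, had the same deposited FPKM in control and TET1, 5417 in HeyC2 and 2248 in SKOV3. The TET1 values had been multiplied by a single factor per line, 3.23 in HeyC2 and 1.35 in SKOV3, that made GAPDH equal. Divided back, GAPDH had 1675 FPKM in the TET1 library of HeyC2 and 1671 FPKM in that of SKOV3. On the deposited scale 31 of the 34 genes of the set that passed the expression filter in HeyC2 were above the control, 30 of them past 1.5-fold and 0 past 1.5-fold lower. In SKOV3 21 of 34 were above the control, 8 past 1.5-fold higher and 1 past 1.5-fold lower. The median over all genes was also higher, with a log2 change of 1.61 in HeyC2 and 0.59 in SKOV3.

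Changes are therefore given relative to that median. The relative log2 change of a gene is log2 of (TET1 FPKM + 1)/(control FPKM + 1), as deposited, minus the median of all genes whose mean FPKM in the line reached 1. A gene is counted as higher or lower when it lies at least 1.5-fold, or 0.58 on the log2 scale, from the median. FPKM levels of TET1 libraries are given below divided back by the factor, unless called deposited, and where a pair of values is given the control comes first. Bracketed ranges are 95% intervals from estimated fragment numbers and cover counting error only, not the spread between cultures. Estimated depth in fragments was 7396000 for control and 6812000 for TET1 in HeyC2, and 7085000 and 6710000 in SKOV3.

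TET1 itself stood at 0.20 FPKM in the HeyC2 control and 0.52 in HeyC2 TET1, about 14 and 33 fragments, and at 0.43 and 1.80 in SKOV3, about 29 and 114 fragments. It was higher in the TET1 library of both lines, from low levels. All marker levels in the rest of this paragraph are deposited FPKM. Those of the TET1 libraries thus carry the factor of 3.23 in HeyC2 and 1.35 in SKOV3. Of the epithelial and ovarian markers, KRT8 and KRT18 lay between 193 and 775 FPKM and PAX8 between 74.6 and 195 FPKM, whereas MUC16 was at most 0.05 FPKM. EPCAM was at most 0.38 FPKM and CDH1 listed at 0 in HeyC2, so these epithelial markers were near or at 0 in HeyC2. In SKOV3, KRT7 was at 1537 FPKM in control and 22.0 FPKM in TET1, and KRT19 at 255 and 0.46 FPKM. KRT8 (560 and 775 FPKM) and KRT18 (193 and 255 FPKM) were higher in TET1 as deposited. Both rises were smaller than that of the all-gene median in SKOV3, so neither gene was higher relative to all genes. In HeyC2, KRT7 was at 290 and 1125 FPKM. That rise was above the all-gene median of 3.05-fold on this scale, though by less than 1.5-fold. Its direction was opposite to that of KRT7 in SKOV3. As deposited in HeyC2, KRT8 fell (476 and 386 FPKM) and KRT18 hardly moved (378 and 379 FPKM). Both were thus lower relative to all genes in HeyC2. The libraries thus differed in keratins beside the genes described below. The part of that difference in the results was not tested. Among markers of other cell types, PTPRC, CD3E, PECAM1 and DCN were at most 0.28 FPKM, and CD68 was between 12.7 and 90.2 FPKM.

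Relative to all genes, the set was lower in TET1 in both lines. In HeyC2 the median relative log2 change of the 34 genes was -0.31, with 24 genes below the all-gene median, 10 counted as lower and 2 as higher. The background was 12.9% lower and 13.0% higher among 12993 genes, against 29.4% lower and 5.88% higher in the set. In SKOV3 the median of 34 genes was -0.38, with 26 below the all-gene median, 13 counted as lower and 3 as higher. There the background was 17.9% lower and 20.6% higher among 13339 genes, against 38.2% and 8.82% in the set. ALDOC in HeyC2 and SLC2A3 in SKOV3 were below the filter.

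**Figure D1:**
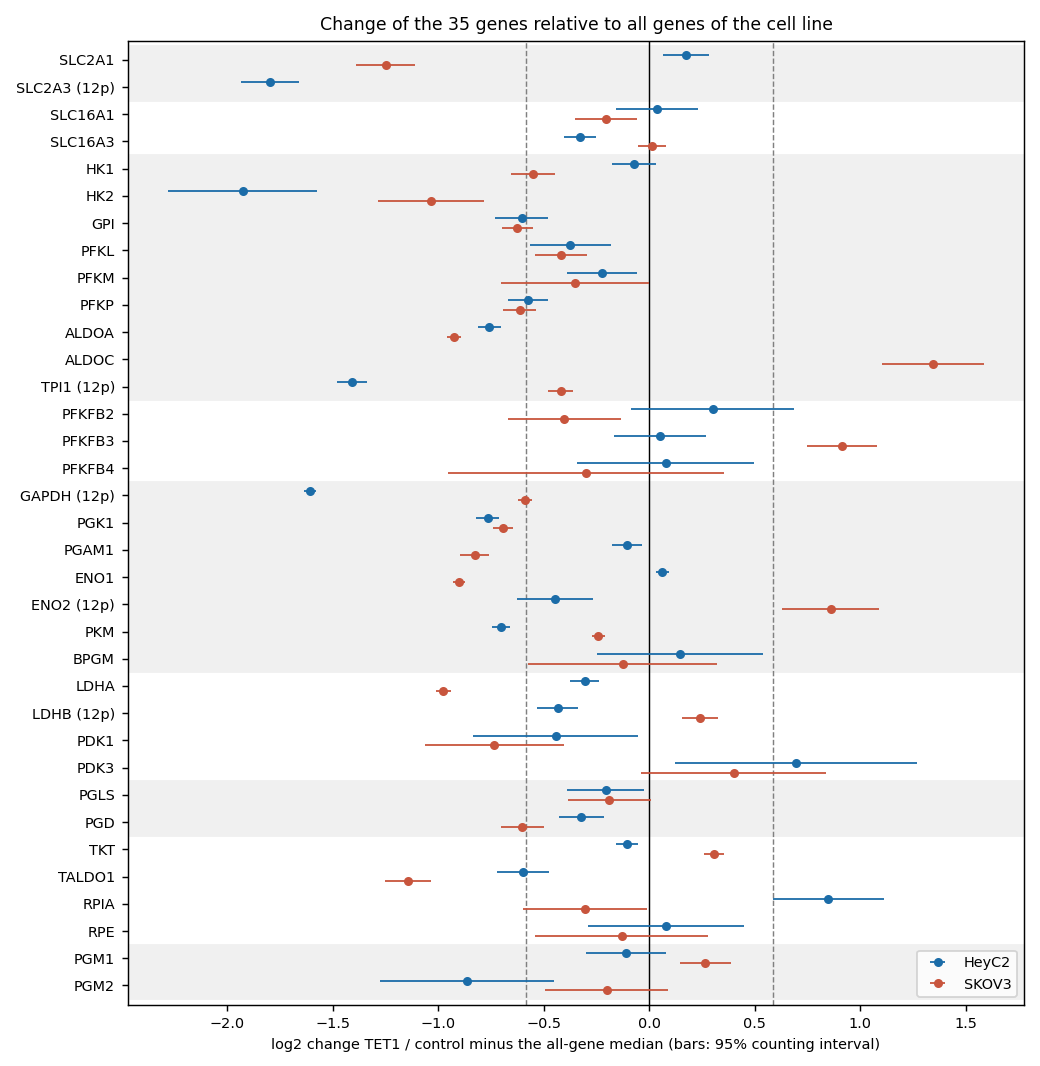
Relative log2 change (x axis, TET1 against control minus the all-gene median) of each of the 35 genes in HeyC2 (blue) and SKOV3 (red). Bars are 95% counting intervals, dashed lines mark 1.5-fold, shaded bands separate the roles, and 12p marks genes on the chromosome 12 short arm. Most points lie left of 0 in both lines, whereas ALDOC, PFKFB3 and ENO2 lie past the right dashed line in SKOV3.

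Many genes of this set are abundant, although PDK3, PFKFB2 and PFKFB4 among others were at a few FPKM or less in at least 1 line, and in SKOV3 abundant genes as a class were lower. The 1334 SKOV3 genes with the largest mean FPKM, 10% of those tested, had a median relative log2 change of -0.29, against 0.14 for the top 1300 genes in HeyC2. Each gene was therefore also set against the 500 genes nearest to it in mean expression. In HeyC2 11 of 34 genes (32.4%) were then lower and 3 higher, with a median of -0.41 and a background of 9.94% lower and 13.3% higher. The 3 higher genes included PFKFB2, which passed the filter in HeyC2 only through its deposited TET1 value. In SKOV3 only 5 of 34 (14.7%) were lower and 4 higher, with a median of -0.26 and a background of 17.0% lower and 19.4% higher. The SKOV3 count of lower genes thus lay below the background once genes of like abundance set the centre, and the HeyC2 count did not. The 5 that stayed lower in SKOV3 were SLC2A1, HK2, LDHA, PDK1 and TALDO1.

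**Figure D2:**
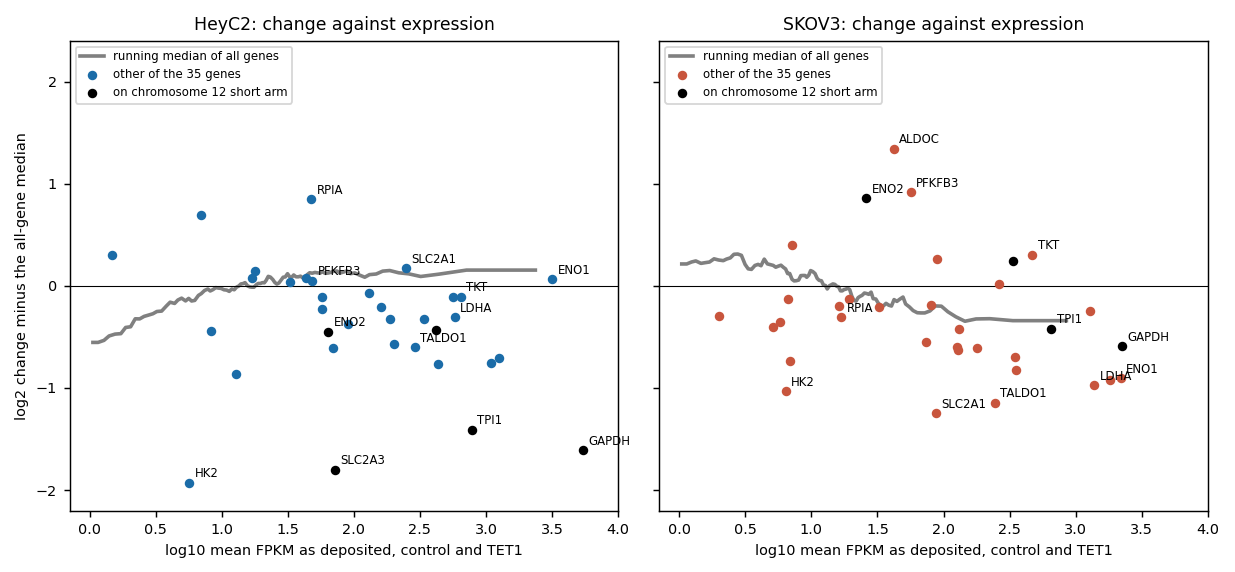
Relative log2 change of each gene of the set (y axis) against the log10 mean deposited FPKM of its line (x axis), for HeyC2 (left) and SKOV3 (right). The grey line is the running median of all genes, and black points are genes on the chromosome 12 short arm. In SKOV3 the grey line descends with abundance to below -0.29, and in HeyC2 it does not, while GAPDH, TPI1 and SLC2A3 lie far below it there.

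Both lines together gave 33 genes past the filter, of which 6 were lower in both and 0 higher in both. The background over 11888 genes was 2.73% lower in both and 3.58% higher in both. The 6 genes were HK2, GPI, ALDOA, GAPDH, PGK1 and TALDO1. Centred on genes of like abundance, 2 of them, HK2 and TALDO1, were lower in both, against a background of 2.51% lower and 3.70% higher. Across the 33 genes, 20 had the same sign in both lines, 18 of them below the median. Pearson's r between the lines was 0.30 and Spearman's rho 0.30 over these genes, which are not independent replicates and share the libraries of each line. Over the 29 genes off the chromosome 12 short arm r was 0.40 and rho 0.36.

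Of the glucose transporters in the set, SLC2A1 held the larger share of the FPKM in all 4 libraries, and SLC2A3 added to it in HeyC2. SLC2A1, the widely expressed glucose transporter GLUT1 (GRCh37 chromosome 1, 43391024 to 43424564), had 111 and 119 FPKM in control and TET1 cells of HeyC2 and 107 and 50.0 FPKM in those of SKOV3. Its relative log2 change was 0.17 (0.07 to 0.28) in HeyC2 and -1.25 (-1.39 to -1.11) in SKOV3, the lowest value of the set there. SLC2A3, the high-affinity transporter GLUT3 (chromosome 12, 8071826 to 8171603), had 76.3 and 20.7 FPKM in HeyC2. Only 1 and 2 fragments were estimated for it in the SKOV3 libraries, at 0.04 and 0.08 FPKM. In HeyC2 its relative log2 change was -1.80 (-1.94 to -1.66). Of the summed FPKM of both transporters, SLC2A3 held 40.8% (39.2 to 42.4) and 14.8% (13.6 to 16.1) in HeyC2, a difference that no scaling of a library can produce. SLC2A6, a further gene of this family outside the set, is not counted in these shares. Its deposited FPKM was 14.3 and 85.9 in HeyC2 and 4.69 and 3.26 in SKOV3. In HeyC2 TET1 it exceeded SLC2A3, which had 66.8 deposited FPKM there.

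The monocarboxylate transporters, which export lactate together with protons, differed less. SLC16A3 (MCT4) had 197 and 148 FPKM in HeyC2 and 208 and 235 FPKM in SKOV3, with relative log2 changes of -0.33 and 0.01. SLC16A1 (MCT1) had 15.5 and 15.7 FPKM in HeyC2 and 28.2 and 27.6 FPKM in SKOV3, with 0.04 and -0.21. SLC16A3 thus stood above SLC16A1 in every library, and neither reached 1.5-fold.

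In upper glycolysis, from hexokinase to triose phosphate isomerase, all 8 measured genes were below the all-gene median in HeyC2 and 8 of 9 in SKOV3, and 4 were counted as lower in each line, which is 50% of the measured genes in HeyC2 (background 12.9%) and 44.4% in SKOV3 (background 17.9%). Against genes of like abundance, HK2 alone of these 4 stayed lower in SKOV3, with GPI at -0.30, PFKP at -0.27 and ALDOA at -0.58 just inside the limit. The largest difference in HeyC2 was that of HK2, the inducible hexokinase that binds mitochondria (chromosome 2, 75061254 to 75120486). HK2 had 6.41 FPKM in control and 1.53 FPKM in TET1 cells of HeyC2, and 7.51 and 3.90 FPKM in SKOV3. Its relative log2 change was -1.93 (-2.28 to -1.57) in HeyC2, from about 251 and 55 fragments, and -1.03 (-1.28 to -0.78) in SKOV3. HK1, the constitutive hexokinase, had 66.4 and 60.1 FPKM in HeyC2 and 73.1 and 55.8 in SKOV3, with relative log2 changes of -0.07 and -0.55. Of the summed FPKM of HK1 and HK2, HK1 held most in every library. The share of HK2 in this pair was 8.81% (7.79 to 9.94) and 2.48% (1.91 to 3.23) in HeyC2, control before TET1. In SKOV3 it was 9.32% (8.30 to 10.4) and 6.53% (5.54 to 7.70). HKDC1, a further hexokinase gene outside the set, is not counted in these shares. Its deposited FPKM was 0.92 and 2.85 in HeyC2 and 25.0 and 49.7 in SKOV3, where it exceeded HK2.

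GPI, which converts glucose-6-phosphate to fructose-6-phosphate (chromosome 19, 34850385 to 34893318), had 45.8 and 28.7 FPKM in HeyC2 and 130 and 94.1 FPKM in SKOV3. Its relative log2 changes were -0.60 (-0.73 to -0.48) and -0.62 (-0.70 to -0.55), at almost the same distance from the median in both lines and near the 1.5-fold limit. ALDOA, the main aldolase (chromosome 16, 30075485 to 30081778), went from 779 to 435 FPKM in HeyC2 and from 2026 to 1193 FPKM in SKOV3, where it was the 11th gene by FPKM in the control. Its relative log2 changes were -0.76 and -0.92. TPI1, which interconverts the triose phosphates, had 728 and 259 FPKM in HeyC2 and 615 and 514 FPKM in SKOV3, with -1.41 (-1.48 to -1.34) and -0.42 (-0.48 to -0.36).

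ALDOC, the aldolase best known from brain, went the other way in SKOV3. It had 16.8 and 49.9 FPKM in SKOV3, about 173 and 478 fragments, and its relative log2 change of 1.34 (1.10 to 1.58) was the highest of the set. In HeyC2 it was listed at 0 in the control and at 0.10 FPKM, 1 estimated fragment, in TET1. ALDOC still made up a small part of aldolase FPKM, with 0.825% (0.711 to 0.956) and 4.01% (3.68 to 4.38) in SKOV3.

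The phosphofructokinases catalyse the committed step of glycolysis. PFKP, the platelet isozyme, had 131 and 83.4 FPKM in HeyC2 and 182 and 133 FPKM in SKOV3. PFKL, the liver isozyme, had 53.4 and 39.3 FPKM in HeyC2 and 124 and 104 FPKM in SKOV3, and PFKM, the muscle isozyme, 31.1 and 25.6 FPKM in HeyC2 and 5.27 and 4.75 FPKM in SKOV3. All were below the all-gene median in both lines, with relative log2 changes from -0.61 to -0.22, and PFKP in SKOV3 alone passed 1.5-fold, at -0.61 against -0.57 just inside the limit in HeyC2. Against genes of like abundance this turned round, with PFKP at -0.71 in HeyC2, past the limit, and at -0.27 in SKOV3. PFKM held 14.4% (13.4 to 15.5) and 17.3% (15.9 to 18.8) of phosphofructokinase FPKM in HeyC2 and 1.69% (1.40 to 2.05) and 1.97% (1.60 to 2.42) in SKOV3, so its share differed between the lines far more than between control and TET1.

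The bifunctional PFKFB enzymes set the level of fructose-2,6-bisphosphate, which activates phosphofructokinase. PFKFB3, the isozyme with the strongest kinase activity (chromosome 10, 6186897 to 6296607), had 22.7 and 22.8 FPKM in HeyC2 and 28.9 and 62.2 FPKM in SKOV3. Its relative log2 change was 0.05 (-0.16 to 0.27) in HeyC2 and 0.91 (0.75 to 1.08) in SKOV3, from about 413 and 834 fragments. PFKFB2 was at 0.04 and 0.90 FPKM in HeyC2, about 2 and 31 fragments, a ratio before scaling of 16.8 (4.28 to 145), and at 4.73 and 4.10 FPKM in SKOV3. In HeyC2 PFKFB2 passed the filter only through its deposited TET1 value of 2.91 FPKM, in the library where it was higher. Before the GAPDH scaling it did not pass. The pseudocount of 1 brought the relative log2 change of PFKFB2 in HeyC2 to 0.30, and with a pseudocount of 0.1 it was 2.66. PFKFB4 was at 7.48 and 8.13 FPKM in HeyC2 and 1.70 and 1.71 FPKM in SKOV3, with 0.08 and -0.30.

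Lower glycolysis, from GAPDH to pyruvate kinase, had 3 of 7 genes counted as lower in HeyC2 (42.9%, background 12.9%) and 4 of 7 in SKOV3 (57.1%, background 17.9%). Against genes of like abundance 0 of these 4 passed 1.5-fold in SKOV3, with GAPDH at -0.25, PGK1 at -0.35, PGAM1 at -0.49 and ENO1 at -0.56. GAPDH (chromosome 12, 6643678 to 6647540) was the 4th gene by FPKM in the HeyC2 control and the 8th in the SKOV3 control. Because its deposited values were made equal, its relative log2 change is the all-gene median with the sign turned, -1.61 in HeyC2 and -0.59 in SKOV3, the latter just past 1.5-fold. PGK1, which makes the first ATP of the pathway (chromosome X, 77166236 to 77384792), had 312 and 173 FPKM in HeyC2 and 361 and 249 FPKM in SKOV3. Its relative log2 changes were close to each other, -0.76 (-0.82 to -0.71) and -0.69 (-0.74 to -0.65).

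PGAM1, the phosphoglycerate mutase, had 292 and 257 FPKM in HeyC2 and 381 and 240 FPKM in SKOV3, with relative log2 changes of -0.11 and -0.83. ENO1, the ubiquitous enolase (chromosome 1, 8921059 to 8939249), had 1515 and 1493 FPKM in HeyC2 and 2430 and 1452 FPKM in SKOV3, where it was the 5th gene by FPKM in the control. Its relative log2 change was 0.06 (0.03 to 0.09) in HeyC2 and -0.90 (-0.93 to -0.88) in SKOV3. PGAM1 and ENO1, which catalyse successive steps, were thus both near the median in HeyC2 and both lower in SKOV3. PKM, pyruvate kinase, showed the reverse order, with 878 and 509 FPKM in HeyC2 (-0.70) and 1124 and 1063 FPKM in SKOV3 (-0.24).

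ENO2, the enolase known from neurons (chromosome 12, 7022909 to 7032861), had 39.1 and 27.4 FPKM in HeyC2 and 13.5 and 28.6 FPKM in SKOV3. Its relative log2 change was -0.45 (-0.63 to -0.27) in HeyC2 and 0.86 (0.63 to 1.09) in SKOV3. It held 2.51% and 1.80% of enolase FPKM in the HeyC2 libraries and 0.55% and 1.93% in the SKOV3 libraries. BPGM, which makes 2,3-bisphosphoglycerate, was at 7.56 and 8.63 FPKM in HeyC2 and 5.46 and 5.87 FPKM in SKOV3, and its intervals held 0 in both lines.

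**Figure D3:**
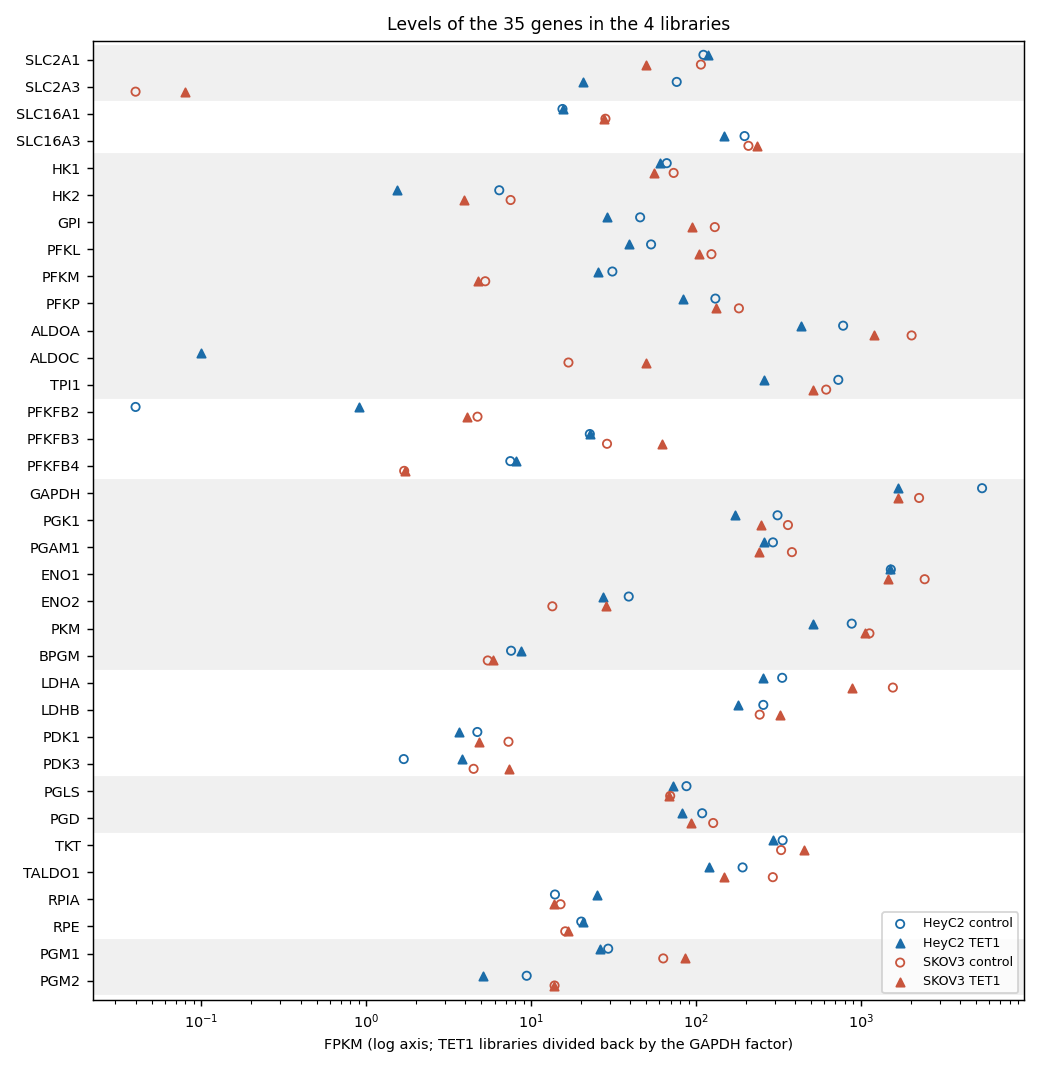
FPKM of the 35 genes (x axis, log scale) in the 4 libraries, ordered by role, with TET1 libraries divided back by the GAPDH factor. Open circles are controls, filled triangles TET1, blue HeyC2 and red SKOV3, and a value of 0 is not drawn. On the blue side GAPDH (5417 and 1675 FPKM), SLC2A3 (76.3 and 20.7 FPKM) and HK2 (6.41 and 1.53 FPKM) show wide gaps between control and TET1.

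The fate of pyruvate is set by lactate dehydrogenase and by the PDK kinases, which switch off pyruvate dehydrogenase. LDHA, the subunit that favours lactate (chromosome 11, 18416107 to 18429972), had 333 and 255 FPKM in HeyC2 and 1560 and 886 FPKM in SKOV3, with relative log2 changes of -0.30 (-0.37 to -0.24) and -0.98 (-1.01 to -0.94). LDHB, the subunit that favours pyruvate (chromosome 12, 21788276 to 21910791), had 256 and 179 FPKM in HeyC2 and 243 and 321 FPKM in SKOV3, with -0.43 (-0.53 to -0.34) and 0.24 (0.15 to 0.33). The share of LDHB in lactate dehydrogenase FPKM was 13.5% (13.0 to 14.0) and 26.6% (25.8 to 27.5) in control and TET1 cells of SKOV3, and 43.4% (42.2 to 44.7) and 41.3% (39.7 to 42.9) in HeyC2.

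PDK1 and PDK3 were expressed at low levels. PDK1 had 4.72 and 3.66 FPKM in HeyC2 and 7.29 and 4.82 FPKM in SKOV3, with relative log2 changes of -0.44 (-0.83 to -0.05) and -0.73 (-1.06 to -0.41). PDK3 had 1.69 and 3.80 FPKM in HeyC2, about 20 and 40 fragments, and 4.48 and 7.34 FPKM in SKOV3, with 0.70 (0.12 to 1.27) and 0.40 (-0.04 to 0.84). The kinases therefore lay on opposite sides of the median in both lines. PDK3 held 26.4% (18.1 to 36.7) and 50.9% (41.3 to 60.5) of the FPKM of the pair in control and TET1 cells of HeyC2, and 38.1% (30.8 to 45.9) and 60.4% (52.9 to 67.3) in the SKOV3 libraries. PDK2, outside the set and not counted in the pair, stood above both, at 17.5 FPKM in the HeyC2 control and 14.5 FPKM in the SKOV3 control.

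**Figure D4:**
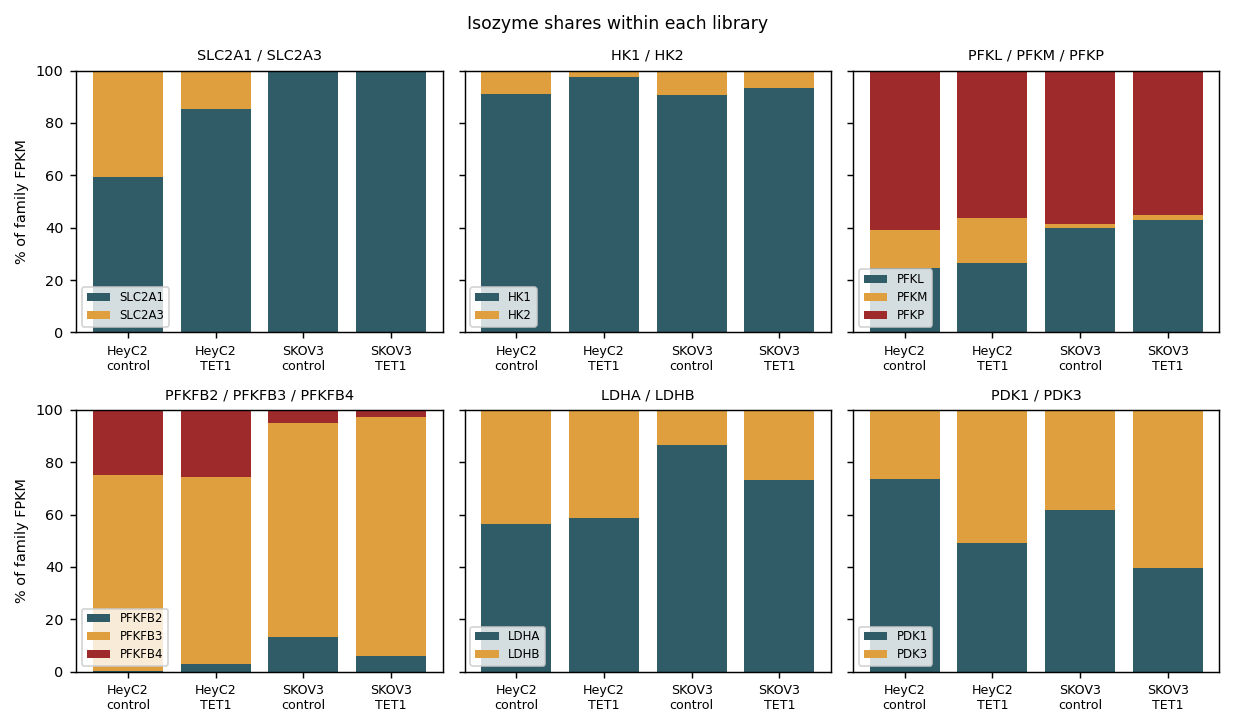
Share of each isozyme in the summed FPKM of its family (y axis, percent) in each of the 4 libraries (bars), for 6 families. A family holds only genes of the set, so SLC2A6, HKDC1 and PDK2 are not counted. The SLC2A3 segment shrinks from 40.8% to 14.8% in HeyC2, the LDHB segment widens from 13.5% to 26.6% in SKOV3, and the PDK3 segment widens in both lines.

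The oxidative pentose phosphate genes were below the all-gene median in both lines. PGLS, the lactonase of this branch, had 87.4 and 72.0 FPKM in HeyC2 and 69.7 and 68.5 FPKM in SKOV3, with relative log2 changes of -0.21 and -0.19. PGD, which releases CO2 and NADPH, had 109 and 82.6 FPKM in HeyC2 and 127 and 93.5 FPKM in SKOV3, with -0.32 and -0.60, the latter past 1.5-fold.

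In the non-oxidative branch the genes lay on both sides of the median. TALDO1, transaldolase (chromosome 11, 747415 to 765012), had 191 and 120 FPKM in HeyC2 and 292 and 147 FPKM in SKOV3, with relative log2 changes of -0.60 (-0.72 to -0.48) and -1.14 (-1.25 to -1.04). TKT, transketolase, which shares the same substrates, had 335 and 294 FPKM in HeyC2 and 328 and 453 FPKM in SKOV3, with -0.11 (-0.16 to -0.05) and 0.31 (0.26 to 0.35). TALDO1 thus lay below TKT relative to all genes in both lines. RPIA, ribose-5-phosphate isomerase (chromosome 2, 88991191 to 89050446), had 13.95 and 25.1 FPKM in HeyC2, where its 0.85 (0.59 to 1.11) was the highest value of the set, and 15.1 and 13.8 FPKM in SKOV3 (-0.30). RPE, the epimerase beside it in the pathway, had 20.1 and 20.8 FPKM in HeyC2 and 16.1 and 16.7 FPKM in SKOV3, and its intervals held 0 in both lines.

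The phosphoglucomutases link glycogen, glucose-6-phosphate and ribose phosphates. PGM1 had 29.3 and 26.2 FPKM in HeyC2 and 63.2 and 85.6 FPKM in SKOV3, with relative log2 changes of -0.11 and 0.27. PGM2 had 9.40 and 5.09 FPKM in HeyC2 and 13.9 and 13.7 FPKM in SKOV3, with -0.86 (-1.27 to -0.45) and -0.20. PGM2 alone of the pair passed 1.5-fold, in HeyC2.

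Of the 35 genes, 5 lie on the chromosome 12 short arm: GAPDH, TPI1, ENO2, SLC2A3 and LDHB. All 5 were below the all-gene median in HeyC2, with relative log2 changes from -1.80 to -0.43, a median of -1.41 and 3 counted as lower. The 164 other genes of the arm past the filter had a median of -0.71, and 100 of them were lower. In SKOV3 the 4 measured genes of the set on this arm had a median of -0.09, and all 151 genes of the arm had a median of 0.00. Off the arm, 7 of 29 genes of the set were lower in HeyC2, 24.1% against the background of 12.9%, with a median of -0.21. Whether the level of the arm accounts for these genes was not tested, and a difference in copy number between the libraries cannot be told apart from one in transcription in these data.

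As a share of the summed FPKM, which the scaling does not affect, the set made up 2.51% and 1.28% in HeyC2 and 2.72% and 2.05% in SKOV3. GAPDH alone held 1.12% and 0.331% in HeyC2 and 0.475% and 0.367% in SKOV3. Without GAPDH the set made up 1.41% and 0.957% in HeyC2 and 2.25% and 1.69% in SKOV3. Upper glycolysis went from 0.382% to 0.184% in HeyC2 and from 0.672% to 0.472% in SKOV3, and the pyruvate fate genes from 0.384% to 0.268% in SKOV3. The non-oxidative pentose phosphate genes held 0.138% and 0.139% in SKOV3, almost equal between the libraries, and 0.116% and 0.0908% in HeyC2. The fructose-2,6-bisphosphate control genes held 0.00746% and 0.0149% in SKOV3 and 0.00626% and 0.00630% in HeyC2. Of the 100 genes with the largest FPKM, the set held 5 and 2 in HeyC2 and 6 and 5 in SKOV3.

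**Figure D5:**
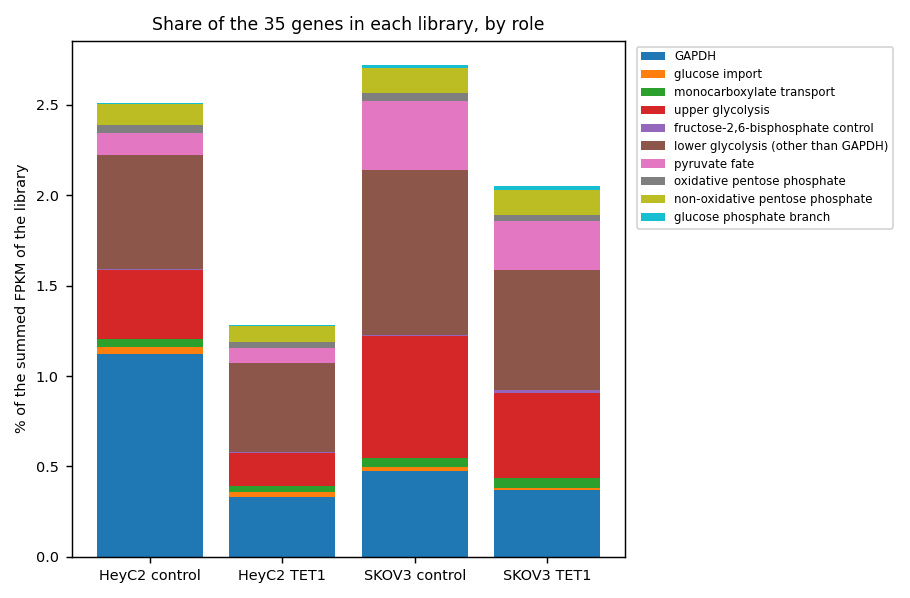
Percent of the summed FPKM of each library held by the 35 genes (y axis), stacked by role with GAPDH drawn apart, for the 4 libraries. The bars reach 2.51%, 1.28%, 2.72% and 2.05%, and the GAPDH segment makes up most of the difference between the HeyC2 bars.

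The control libraries already differed between the lines. With each gene taken relative to the median difference of all genes, 8 of the 35 were higher in the SKOV3 control than in the HeyC2 control and 7 were lower, with a median of -0.05. The background was 28.6% higher and 29.0% lower among 12488 genes, so the set as a whole did not stand out. LDHA, ALDOA, GPI, PFKL, PGM1, PDK3, PFKFB2 and ALDOC were higher in SKOV3, and SLC2A3, PFKM, PFKFB4, ENO2, GAPDH, BPGM and PGLS lower. The tables of the lines were made separately, and these values describe 1 library per line.

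Promoter sequence was examined for ACGTG and GCGTG, both forms of the core of the hypoxia response element. This element is bound by HIF factors, which are known regulators of many glycolytic genes. RefSeq promoters (GRCh38.p14) were matched for 32 of the 35 genes, and the 250 bases before the listed start were searched on both strands. ACGTG was present in 12 of 32 genes (37.5%), in 18.7% of 27305 promoters and in 23.3% of the 10594 promoters of expressed genes. Of the 6 genes lower in both lines, 5 held it, all but TALDO1, and so did 2 of the 3 genes higher in SKOV3, ALDOC and ENO2. ACGTG was thus found among genes that lay on either side of the median. GCGTG, the other form of the core, was present in 11 of 32 (34.4%), against 31.9% of all and 45.5% of expressed genes' promoters. This form was thus less frequent in the set than among expressed genes, unlike ACGTG. The E-box CACGTG, which contains ACGTG on both strands, was present in 4 of 32 (12.5%) against 6.49% of all and 8.73% of expressed genes' promoters. A match is a string of letters, not a bound site.

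The windows of HK2, PGK1 and GAPDH, each lower in both lines, are shown in the direction of the gene from 5′ to 3′, ending at the base before the start. They lie at chr2:74833877-74834126, chrX:78103998-78104247 and chr12:6535014-6535263 of GRCh38.p14, all on the plus strand. Capitals mark ACGTG or its reverse complement, and in GAPDH both overlap in the E-box.
HK2: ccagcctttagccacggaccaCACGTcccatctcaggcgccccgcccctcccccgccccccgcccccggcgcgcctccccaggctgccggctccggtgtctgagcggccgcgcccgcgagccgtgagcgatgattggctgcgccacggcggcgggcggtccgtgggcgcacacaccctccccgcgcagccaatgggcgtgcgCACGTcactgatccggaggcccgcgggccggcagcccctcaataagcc
PGK1: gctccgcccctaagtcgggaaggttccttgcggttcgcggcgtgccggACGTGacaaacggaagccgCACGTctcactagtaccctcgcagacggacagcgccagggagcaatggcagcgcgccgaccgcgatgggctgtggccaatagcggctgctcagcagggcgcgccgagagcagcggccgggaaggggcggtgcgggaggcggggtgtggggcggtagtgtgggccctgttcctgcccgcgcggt
GAPDH: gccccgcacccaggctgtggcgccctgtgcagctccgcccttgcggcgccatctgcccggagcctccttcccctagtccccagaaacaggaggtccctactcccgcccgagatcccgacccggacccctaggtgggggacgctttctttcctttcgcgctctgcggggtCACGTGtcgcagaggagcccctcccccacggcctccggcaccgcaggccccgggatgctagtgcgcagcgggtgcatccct
HK2 and PGK1 each held 2 separate copies of ACGTG, and in GAPDH the 2 matches were the strands of 1 E-box.

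A list of 73 further genes of these pathways and their neighbours was described beside the set. In HeyC2 47 of them passed the filter, with 7 higher (14.9%, background 13.0%) and 9 lower (19.1%, background 12.9%). In SKOV3 50 passed, with 15 higher (30%, background 20.6%) and 11 lower (22%, background 17.9%). Counted the same way in both lines were 3 genes, all higher, of at most 47 that could pass the filter in both. The background was 3.58% higher and 2.73% lower in both. The 3 genes were TXNIP, which restrains glucose uptake (1.06 in HeyC2 and 1.70 in SKOV3), and the muscle isozymes ENO3 (1.22 and 1.62) and PGAM2 (1.12 and 1.11). They were also the 3 highest of the list in HeyC2. ENO3 and PGAM2 rested on 5 to 46 fragments in the controls. Beyond these, the lowest in HeyC2 were PSAT1 (-2.48) and PHGDH (-1.42) of serine synthesis and GFPT2 (-1.77) of the hexosamine branch. In SKOV3 PSAT1 (1.22), PHGDH (1.41) and GFPT2 (1.70) were higher. The highest in SKOV3 were PCK2 (2.42), SLC16A8 (1.89) and PGM2L1 (1.87), and the lowest GYS1 (-1.19), PYGL (-1.04) and SLC2A6 (-1.01). PCK2 was at -1.32 and SLC2A6 at 0.90 in HeyC2, so both were on opposite sides in the lines.

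Some of these genes have near-identical copies, between which reads can be divided. The copies PGAM4, PGK2 and SLC2A14 were at most 0.12 FPKM, and the pseudogenes PGAM1P5, TPI1P2 and TPI1P3 at most 1.14 FPKM, in every library. Reads shared with copies that were not listed cannot be counted, so the values of GAPDH, PGK1, TPI1, PGAM1 and LDHA are uncertain to that extent. In these bulk samples, fewer cells with a transcript and less of it per cell cannot be told apart.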

How the data were processed

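RNA was sequenced in 4 libraries, 1 per condition and cell line. Per the labels, TruSeq libraries were read as paired ends of 150 bases, and the authors aligned them to hg19 with Bowtie2 2.2.6 and quantified genes with RSEM 1.2.17. The deposited values are FPKM, 1 table per line with 26506 symbols. The annotation used and the multiplication of the TET1 values by a GAPDH factor are not given in the sources used here. The factor was recovered from the step of 0.01 FPKM between values below 40 FPKM, and 100% of distinct values lay on its multiples in both lines.

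From these values, log2 changes were computed after adding a pseudocount of 1, and the median of all genes whose mean FPKM reached 1 was subtracted. With 1 library per condition, no test and no p-value was computed. Fragments were estimated from FPKM, GENCODE transcript length on GRCh37 and a depth at which the smallest values fall on whole fragments, and 95% intervals follow from them by error propagation on the log scale. Coordinates come from the same annotation by symbol, and promoters from RefSeq by symbol. The calculation was tested on simulated data. The 35 genes, the further lists and the markers were chosen with earlier results of these data known. All 35 genes were named, and of the 73 further genes those past 1.5-fold in both lines in the same direction and the 3 highest and 3 lowest in each line. The values of PSAT1, PHGDH, GFPT2, PCK2 and SLC2A6 in the other line were added after they were seen. HKDC1 and PDK2 were also named later, and the FPKM of SLC2A6 was added later, since the isozyme shares leave them out. Protein sequences were not used here. Alternatives were other pseudocounts, filters, fold limits and centres, values before the GAPDH scaling, and leaving out the chromosome 12 short arm. Python 3.11.15, numpy 2.4.6, pandas 2.3.3, scipy 1.17.1 and matplotlib 3.10.9 were used.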

Additional observations from a re-analysis of the deposited data

Results flagged for a closer look

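Genes of the set drew attention where their relative log2 changes had opposite signs in HeyC2 and SKOV3, with both 95% counting intervals on 1 side of 0 and at least 1 line past 1.5-fold. SLC2A1, the glucose transporter, was at 0.17 in HeyC2 and -1.25 in SKOV3. Its HeyC2 value was 0.010 with a pseudocount of 0.01 and -0.0043 under upper-quartile centring. ENO1 was at 0.063 in HeyC2 and -0.90 in SKOV3. The HeyC2 value of ENO1 was -0.09 when centred on the 500 genes nearest in expression, so the signs of both genes in HeyC2 depend on the processing. ENO2, which lies on the chromosome 12 short arm, was at -0.45 in HeyC2 and 0.86 in SKOV3. RPIA was at 0.85 and -0.30. Without a filter on low values, ENO2 was at 0.54 in HeyC2 and RPIA at 0.20 in SKOV3, so these signs turned under that setting. The difference between the lines was not tested for any of the 4 genes, since each line has 1 library per condition.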

How the results depend on the processing

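With 1 library per condition, counting error is the only error that could be given, and its interval was widest for PFKFB4 in SKOV3 and PDK3 in HeyC2. No paired analysis was possible because each group has 1 library. Pseudocounts of 0.1 and 0.01 gave medians of -0.46 and -0.47 in HeyC2. Upper-quartile centring gave medians of -0.49 in HeyC2, with 1 gene higher, and -0.24 in SKOV3, with 8 lower. Before the GAPDH scaling and without centring the SKOV3 median was -0.15, with 7 lower, and centring on the 500 nearest genes left 5 lower in SKOV3. A 2-fold limit left 0 higher and 4 lower in HeyC2 and 1 and 3 in SKOV3, and a 1.2-fold limit gave 18 lower in HeyC2 and 6 higher and 20 lower in SKOV3. Without a filter the centre also takes in genes with a low FPKM or listed at 0, and GAPDH lay at -0.62 in HeyC2 and -0.08 in SKOV3. The medians of the set were then 0.67 in HeyC2, with 20 higher and 3 lower, and 0.11 in SKOV3, with 7 higher and 2 lower. GPI (0.38), ALDOA (0.23), PGK1 (0.22), PKM (0.29), TALDO1 (0.39) and PGM2 (0.13) were then above the median in HeyC2 although counted as lower with the filter. In all, 20 of 34 signs turned in HeyC2 and 12 of 34 in SKOV3 without the filter. With the 10 most abundant other genes left out of the sum, the set held 2.77% and 1.41% in HeyC2 and 2.90% and 2.18% in SKOV3, and without GAPDH 1.41%, 0.957%, 2.25% and 1.69%. Leaving out the chromosome 12 short arm changed 0 calls of the remaining genes in either line. The causes of the other differences were not tested.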
